A study of Mus musculus with 8 samples.

Results

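The carboxypeptidase genes Cpa1 and Cpb1, the amylase genes Amy1, Amy2a5 and Amy2b, the ribonuclease gene Rnase1 and the tissue kallikrein gene Klk1 were followed in pancreatic tissue of mice with and without Bach2, a transcriptional repressor of lymphocytes and other cells. They were chosen by name, and all 7 are among the 21434 genes of the count table. Bach2KO mice carried the allele Bach2tm1b(EUCOMM)Wtsi on a C57BL/6N background in every cell of the body, and Bach2WT mice were wild-type animals of the same strain. Both groups were untreated, 18 weeks old and made up of 2 females (mice 1 and 2) and 2 males (mice 3 and 4), with 1 poly(A) RNA library per mouse. Mice that lack Bach2 are known to stay small and to develop lung disease, so that the loss of Bach2 in the pancreas and the general state of the animals cannot be told apart here.

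Acinar cells of the exocrine pancreas make digestive enzymes in bulk, store them in zymogen granules and release them into the duct on hormonal and nervous stimulation. Carboxypeptidases are secreted as inactive proforms that trypsin activates and that then remove single amino acids from the end of peptides, aromatic and aliphatic ones by carboxypeptidase A1 (Cpa1) and basic ones by carboxypeptidase B1 (Cpb1). Amylase splits starch, pancreatic ribonuclease (Rnase1) digests RNA, and tissue kallikrein (Klk1) is a serine protease that frees kinin peptides from kininogens. Amy2 genes are known as the pancreatic amylases of the mouse and Amy1 as the amylase of the salivary gland and the liver.

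The libraries held 72299745 to 172029360 counts on genes, and the 7 genes together took 10.8% ± 0.339 (SD, n = 4) of them in Bach2KO mice and 12.1% ± 0.620 (SD, n = 4) in Bach2WT mice. Bach2 itself had 3 to 16 counts in the Bach2KO libraries and 4 to 31 in the Bach2WT libraries, which is too few to check the genotype labels, and its gene-level count also takes in reads outside the deleted part. In a principal component analysis, Bach2KO mouse 3 stood apart with a first component of 101.8, while the other 7 libraries lay between -34.8 and 7.22. Nothing in the labels says more of this library, and the values without it are given where they bear on a result. The libraries are whole tissue, so that fewer acinar cells and less RNA of a gene per acinar cell cannot be told apart.

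The sequences of the amylase genes bear directly on what their counts can show. By the Ensembl coordinates of the table (GRCm39), the 3 amylase members lie on the minus strand of chromosome 3, Amy2b at 113054972 to 113064043, Amy2a5 at 113154494 to 113166153 and Amy1 at 113349359 to 113400348. In the GENCODE vM21 transcripts (GRCm38), the 1527 coding bases of Amy2a5 (ENSMUSG00000074268) had 0 differences from those of Amy2a2, Amy2a3 and Amy2a4, and none from the 735 coding bases of Amy2a1. Against Amy2a5, the aligned bases of Amy2b (ENSMUSG00000083079) held 29 differences, an identity of 98.1%, and those of Amy1 (ENSMUSG00000074264) held 154, an identity of 89.9%. Amy2b is labelled an unprocessed pseudogene in the table, whereas the RefSeq annotation calls it protein coding. Shown first are the 60 coding bases, 187 to 246, in which Amy2b differed most from Amy2a5, with every base that differs from Amy2a5 in capitals, and then the 60 coding bases, 418 to 477, in which Amy1 differed most from Amy2a5.
Amy2a5, bases 187 to 246: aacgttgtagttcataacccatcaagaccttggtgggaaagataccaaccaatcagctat
Amy2b, the same bases: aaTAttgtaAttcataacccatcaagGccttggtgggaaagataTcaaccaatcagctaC
Amy1, the same bases: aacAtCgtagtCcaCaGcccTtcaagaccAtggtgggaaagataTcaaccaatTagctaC
Amy2a5, bases 418 to 477: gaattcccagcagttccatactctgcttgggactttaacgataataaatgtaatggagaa
Amy2b, the same bases: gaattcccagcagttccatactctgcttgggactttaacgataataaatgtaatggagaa
Amy1, the same bases: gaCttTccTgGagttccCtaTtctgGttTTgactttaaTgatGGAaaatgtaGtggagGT
In the first stretch Amy2b had 6 differences from Amy2a5 and Amy1 had 10. In the second stretch Amy2b had 0 and Amy1 had 16. Both stretches were chosen for holding the most differences, so most other stretches of these genes are more alike.

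The libraries were sequenced with reads of 150 bases, and windows of that length were therefore looked up in all other genes. Of 3566 such windows along the Amy2a5 transcript, 1970 (55.2%) were found in no other gene's transcript, but 0 of the 1378 windows inside its coding part were. All windows of Amy2a5 that set it apart thus took in bases after the coding part. In Amy2b 96.1% of windows were found in no other gene, and in Amy1, Cpa1, Cpb1, Rnase1 and Klk1 100%. The near copies Amy2a2, Amy2a3 and Amy2a4 had 0% and Amy2a1 had 5.80%, as shown in the map of the amylase transcripts. With windows of 75 bases the share was 48.8% in Amy2a5, 78.0% in Amy2b and 85.6% in Klk1, which then shared windows mainly with Klk1b5. By default, featureCounts leaves out reads placed at more than 1 position, but the options the authors set are not given in the sources used here. Counts of the Amy2 genes are therefore uncertain as levels of single genes, and what the way of counting did to them was not tested.

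**Figure D1:**
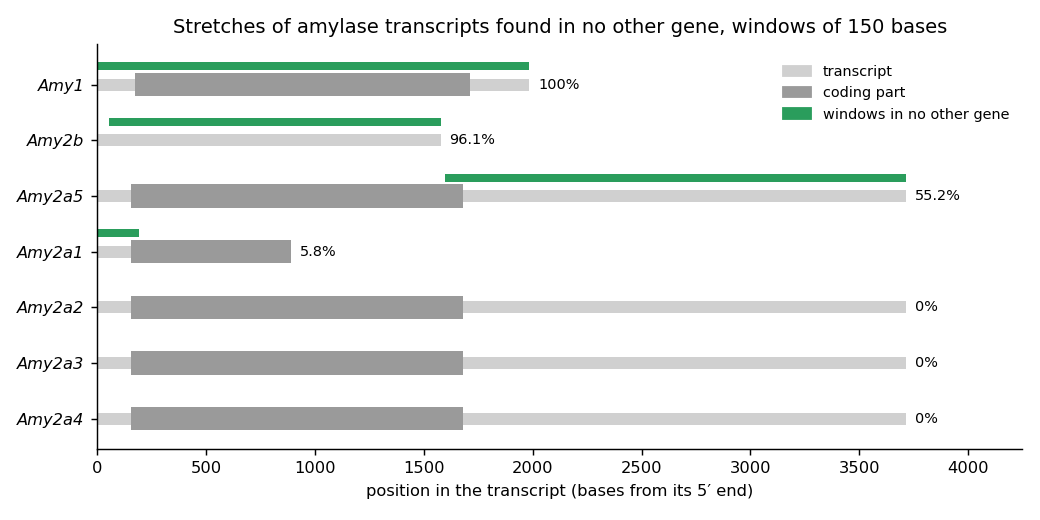
Transcripts of the 7 amylase genes, drawn to scale with the position in bases from the 5′ end on the horizontal axis; light grey marks the transcript, dark grey the coding part, green the windows of 150 bases found in no other gene, and the number the share of such windows. Amy1 is covered throughout, whereas Amy2a5 is covered after its coding part and Amy2a2, Amy2a3 and Amy2a4 are not covered.

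RefSeq promoters (GRCm38.p6, 250 bases before the start of the gene and 50 after) were found for all 7 genes, and 4 are shown from 250 bases before to 30 after the start. Those of Cpa1 and Rnase1 are given because these genes differed most clearly between the genotypes, and those of Amy2a5 and Amy2b because near copies can be compared there. Capitals mark matches, on either strand, of the E-box CAGCTG, the E-box CACCTG, the TATA box TATAAA, the element TGGGAA of the acinar factor complex PTF1 and the AP-1 type element TGANTCA, which resembles sites bound by Bach proteins. A match on the other strand reads as the reverse complement, and no matches overlap in these windows.
Cpa1 (chr6:30638968-30639247, plus strand): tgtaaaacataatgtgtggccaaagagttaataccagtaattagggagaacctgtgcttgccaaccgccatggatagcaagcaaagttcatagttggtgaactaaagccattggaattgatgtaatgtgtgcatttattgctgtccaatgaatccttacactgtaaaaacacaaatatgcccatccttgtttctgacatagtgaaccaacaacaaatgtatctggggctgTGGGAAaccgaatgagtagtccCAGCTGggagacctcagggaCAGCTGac
Rnase1 (chr14:51146738-51147017, minus strand): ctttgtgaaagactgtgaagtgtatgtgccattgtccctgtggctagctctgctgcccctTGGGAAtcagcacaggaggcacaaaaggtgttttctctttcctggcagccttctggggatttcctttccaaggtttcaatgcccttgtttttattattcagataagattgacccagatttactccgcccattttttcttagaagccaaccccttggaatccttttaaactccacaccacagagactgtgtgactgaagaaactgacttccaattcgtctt
Amy2a5 (chr3:113258670-113258949, minus strand): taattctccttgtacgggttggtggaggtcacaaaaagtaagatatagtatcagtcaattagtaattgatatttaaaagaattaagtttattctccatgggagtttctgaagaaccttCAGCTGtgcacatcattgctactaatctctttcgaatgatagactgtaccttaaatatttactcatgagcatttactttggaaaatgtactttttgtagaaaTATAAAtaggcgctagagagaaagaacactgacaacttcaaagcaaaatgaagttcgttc
Amy2b (chr3:113156698-113156977, minus strand): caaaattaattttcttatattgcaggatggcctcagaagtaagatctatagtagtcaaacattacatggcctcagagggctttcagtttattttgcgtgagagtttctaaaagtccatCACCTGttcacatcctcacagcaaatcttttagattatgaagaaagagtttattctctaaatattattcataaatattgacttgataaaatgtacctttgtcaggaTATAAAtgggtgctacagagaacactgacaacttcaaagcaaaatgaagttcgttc
The Cpa1 window held CAGCTG starting 2 and 22 bases after the start and TGGGAA 20 bases before it, and the Rnase1 window held TGGGAA 190 bases before the start. In Amy2a5 the E-box CAGCTG began 132 bases before the start and TATAAA 30 bases before it. In Amy2b the E-box CACCTG stood at the same distance of 132 bases, with TATAAA 26 bases before the start. Not printed, the Cpb1 window held CACCTG 94 bases before the start and TATAAA 35 bases after it, and the Klk1 window held CACCTG at 87 and TGGGAA at 126 bases before it. Amy1 has a pair of annotated starts, with TGGGAA 131 bases before one and TATAAA 63 bases before the other. None of the windows of the 7 genes held TGANTCA. Of 32851 promoters of the same length, 16.3% held CAGCTG, 20.2% CACCTG, 13.6% TATAAA, 25.6% TGGGAA and 7.81% TGANTCA. These matches describe letters in a window and not bound sites.

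The levels of the 7 genes, in FPKM, which is scaled for library size and gene length and so can be compared between genes, spanned from some of the most abundant transcripts of the tissue to moderate ones. In Bach2WT mice the mean was 45355 ± 5999 FPKM for Cpa1, 22690 ± 3780 for Rnase1, 9223 ± 974 for Cpb1, 1067 ± 84.9 for Klk1, 54.2 ± 6.20 for Amy2a5, 39.5 ± 13.8 for Amy2b and 8.23 ± 3.77 for Amy1 (SD, n = 4 each). By these means, Cpa1 ranked 5 among all genes of Bach2WT pancreas, Rnase1 14, Cpb1 17, Klk1 30, Amy2a5 170, Amy2b 211 and Amy1 659. The order Cpa1, Rnase1, Cpb1, Klk1 and Amy2a5 held in 8 of 8 libraries, and the FPKM ranges of these 5 neighbours did not overlap. Amy2a5 exceeded Amy2b in 7 of 8 libraries with overlapping ranges, so that these neighbours did not differ beyond their spread. Amy2b exceeded Amy1 in 8 of 8 libraries, although their ranges over all libraries overlapped. The amylase gene with the highest FPKM was none of these, but Amy2a1 with 317 to 786 FPKM. All 7 amylase genes of the table together took 0.0651% to 0.148% of the counts of a library, while the 2 carboxypeptidase genes took 8.93% to 10.5%. Reads that fit several Amy2 genes may be missing from the amylase sum as well. Amy2a2, Amy2a3 and Amy2a4, which share every window, still had 944 to 13940 counts in a library, and how shared reads were counted was not tested. The sum therefore cannot be read as the level of amylase mRNA beside that of the carboxypeptidases.

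**Figure D2:**
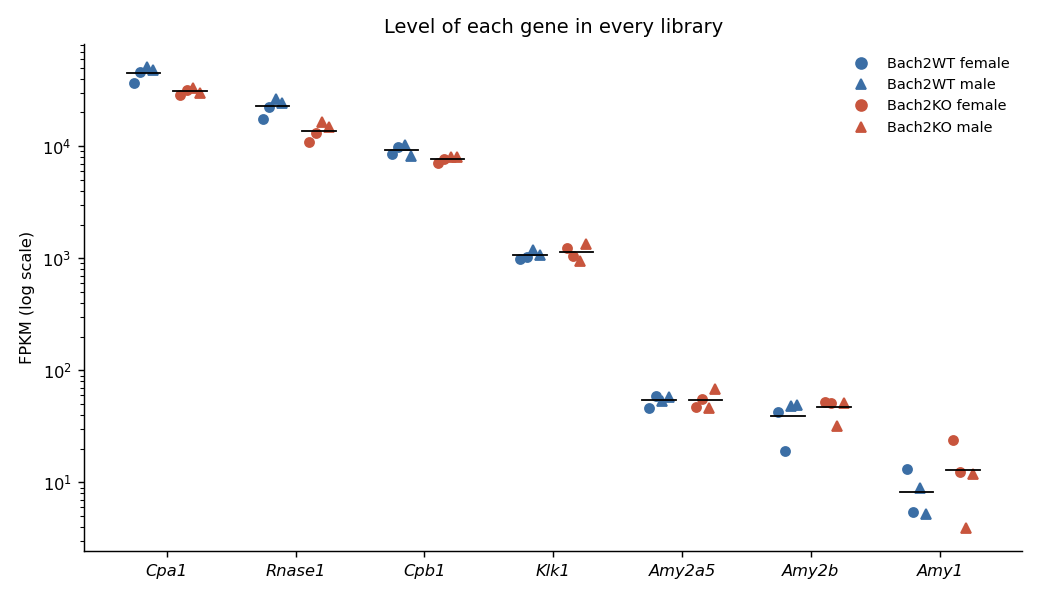
FPKM on a log scale of the 7 genes in each of the 8 libraries; circles are females, triangles males, blue Bach2WT, red Bach2KO, and a line marks the mean of the 4 libraries of a genotype. For Cpa1, Rnase1 and Cpb1 all Bach2KO libraries lie below all Bach2WT libraries, and for Klk1 and the amylases the genotypes overlap.

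The question of the comparison between genotypes was whether loss of Bach2 alters gene expression in the pancreas. The mRNAs of carboxypeptidase A1 and of the ribonuclease stood lower in Bach2KO mice, at 0.691 and 0.617 times the Bach2WT level, but neither passed the test over all genes in edgeR. Carboxypeptidase B1 was at 0.853 times, within an interval that includes no difference, and the amylases and kallikrein had estimates at or above the Bach2WT level with intervals that include no difference. In edgeR's quasi-likelihood test with Benjamini-Hochberg adjustment over 12820 genes, 0 of the 7 genes passed an adjusted p of 0.05, beside 0.0078% of all genes tested in either direction. At an unadjusted p under 0.05, 2 of 7 were lower and 0 were higher, beside 3.56% of all genes lower, 3.9% higher and 7.46% in either direction. The median log2 fold change of the 7 genes was 0.03, with 3 below 0 and 4 above, and the median of all genes tested was 0.05. DESeq2 placed Rnase1 and Cpa1 past the adjusted threshold, among 0.148% of genes called lower and 0.335% called higher, as is given with each gene.

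**Figure D3:**
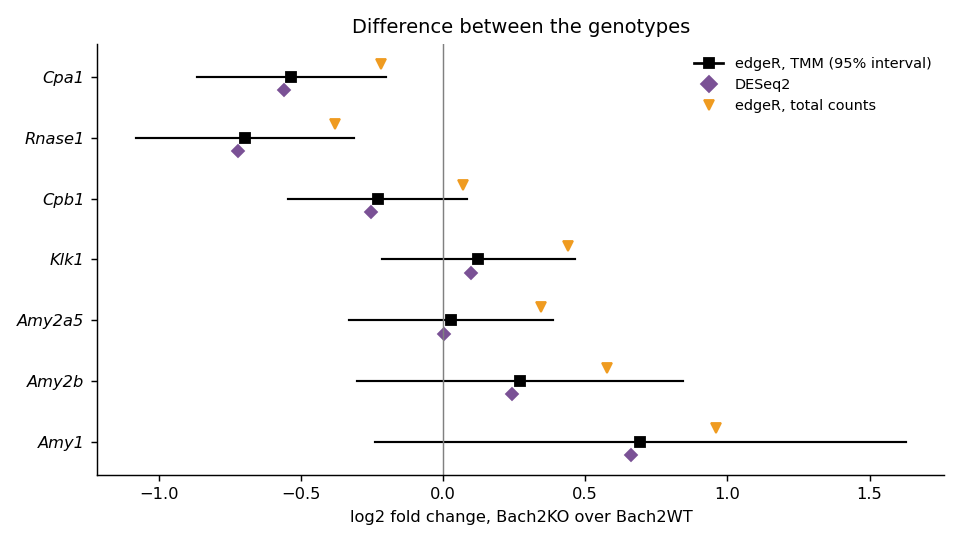
Log2 fold change of Bach2KO over Bach2WT for each gene; black squares with bars are edgeR estimates with TMM factors and their 95% intervals, purple diamonds DESeq2 estimates and orange triangles edgeR estimates with total counts as the only scaling. The bars of Cpa1 and Rnase1 lie below 0, those of the other 5 genes include 0, and the orange triangles lie to the right of the squares for all 7 genes.

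Cpa1 (ENSMUSG00000054446; GRCm39 chromosome 6, 30639217 to 30645362, plus strand) encodes carboxypeptidase A1. Its FPKM was 28709, 31537, 33218 and 29796 in Bach2KO mice 1 to 4 and 36917, 45851, 50901 and 47750 in Bach2WT mice 1 to 4. Every Bach2KO library was below every Bach2WT library, and Bach2WT mouse 1 was the lowest of its group. Such a gap, lower in Bach2KO mice without overlap in CPM, was found for 1.92% of all genes tested and for 2 of the 7, Cpa1 and Rnase1. The opposite gap, higher in Bach2KO mice, was found for 2.57% of all genes and for 0 of the 7. The log2 fold change in edgeR was -0.53 (SE 0.15; 95% interval -0.86 to -0.20), with an adjusted p of 0.513, and the unadjusted p across all genes in edgeR was 0.00409, the rank 98 among 12820 genes. In DESeq2 the log2 fold change was -0.56 with an adjusted p of 0.0482. Without Bach2KO mouse 3, edgeR gave -0.58 with an adjusted p of 0.412. The difference was -0.42 on the log2 CPM scale in females and -0.63 in males. That the groups did not overlap within a sex follows from the gap over all libraries. Cpa1 took 6.11% to 6.23% of all counts in Bach2KO libraries and 6.96% to 7.50% in Bach2WT libraries. As a share of counts, its level was thus almost the same in the 4 Bach2KO mice, with a coefficient of variation of 0.763%.

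Rnase1 (ENSMUSG00000035896; GRCm39 chromosome 14, 51382455 to 51384242, minus strand) encodes pancreatic ribonuclease. The Bach2KO mice had 10801, 12997, 16513 and 14784 FPKM, and the Bach2WT mice had 17514, 22506, 26285 and 24456. The highest Bach2KO library, mouse 3, was below the lowest Bach2WT library, mouse 1. Here the log2 fold change was -0.70 (SE 0.18; 95% interval -1.08 to -0.31) with an adjusted p of 0.371 in edgeR, where the unadjusted p ranked 58 of 12820 genes at 0.00170. DESeq2 gave -0.72 with an adjusted p of 0.0306, and edgeR without Bach2KO mouse 3 gave -0.81 with an adjusted p of 0.356. The difference was -0.71 in females and -0.68 in males on the log2 CPM scale. In both genotypes the males lay above the females, by 0.35 on the log2 scale (SE 0.15) with an adjusted p of 0.890 in edgeR. By sex, 0 of 7 genes passed the adjusted threshold, beside 0.0312% of all genes, and Rnase1 alone had an unadjusted p under 0.05 (0.0393 in edgeR), beside 5.29% of all genes in either direction and 1.93% higher in males. In 11 alternatives to this test, 1 of the 7 genes was higher in males at an unadjusted p under 0.05 in 4 and none in 7, and 1 was lower in males in 6.

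Cpb1 (ENSMUSG00000011463; GRCm39 chromosome 3, 20302428 to 20329897, minus strand) encodes carboxypeptidase B1. It had 7054, 7740, 8067 and 8074 FPKM in Bach2KO mice and 8605, 9909, 10186 and 8191 in Bach2WT mice. The groups did not overlap in FPKM, but Bach2KO mouse 4 and Bach2WT mouse 4 nearly met, and in CPM with TMM factors they crossed at 27134 and 27125. The log2 fold change was -0.23 (SE 0.15; 95% interval -0.55 to 0.09) with an adjusted p of 0.788 in edgeR. With a correction for gene length it was -0.36, with an unadjusted p across all genes in edgeR of 0.0319 and an adjusted p of 0.544. As a share of counts, Cpb1 stood at 2.91% ± 0.157 in Bach2KO mice and 2.77% ± 0.392 in Bach2WT mice (SD, n = 4). Relative to the median of all genes tested, its log2 fold change was -0.28 with TMM factors and -0.27 with total counts as the only scaling.

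The scaling of the libraries shaped the size of all these differences. Both size factors and TMM factors leave the typical gene near no difference, whereas total counts as the only scaling, an alternative added after the data were seen, moved the median of all genes tested from 0.05 to 0.35 on the log2 scale. With total counts, the log2 fold change was -0.38 for Rnase1, -0.22 for Cpa1 and 0.07 for Cpb1. Relative to the median of all genes in that fit, the same values were -0.73, -0.56 and -0.27. The split of genes at an unadjusted p under 0.05 was 500 higher and 457 lower with TMM factors, 1592 and 47 with total counts, and 327 and 752 with a correction for gene length, which moved the median of all genes to -0.06. Klk1 at 0.44 and Amy2a5 at 0.35 were higher at an unadjusted p under 0.05 in edgeR with total counts, and neither passed the adjusted threshold there. Relative to the median of all genes in that fit, Klk1 was at 0.09 and Amy2a5 at 0.0012.

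Ratios between 2 genes within a library do not depend on a factor that applies to all genes of the library. A correction for gene length can change them, and they were not tested with it. With that correction, the log2 fold change in edgeR was -0.58 for Cpa1 and -0.36 for Cpb1. Tests of 6 ratios used exact permutation of the genotypes (two-sided), which cannot give a p below 0.0286 with 4 against 4 libraries. The count ratio of Cpa1 to Cpb1 was 1.97 to 2.19 in Bach2KO mice and 2.29 to 3.11 in Bach2WT mice. These ranges did not overlap, the log2 difference was -0.30, and the exact permutation p was 0.0286, or 0.0857 adjusted over the 6 ratios. Cpa1 was thus lower relative to Cpb1 in 4 of 4 Bach2KO libraries, a difference that did not pass the correction. The ratio of Klk1 to Cpa1 was 0.0175 to 0.0276 in Bach2KO mice and 0.0137 to 0.0166 in Bach2WT mice, also without overlap, with a log2 difference of 0.64 and the same exact permutation p of 0.0286, or 0.0857 adjusted. Amy2b to Cpa1 had a log2 difference of 0.85 with overlapping ranges (exact permutation p = 0.0857, adjusted 0.171). Rnase1 to Cpa1 had one of -0.17 (exact permutation p = 0.229, adjusted 0.343), so that the ribonuclease and carboxypeptidase A1 mRNAs were not shown to differ from each other in their change. The ratios of Amy2a5 to Amy2b, at -0.31, and of Amy1 to Amy2b, at 0.20, had exact permutation p-values of 0.6 and 0.743, adjusted 0.72 and 0.743.

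**Figure D4:**
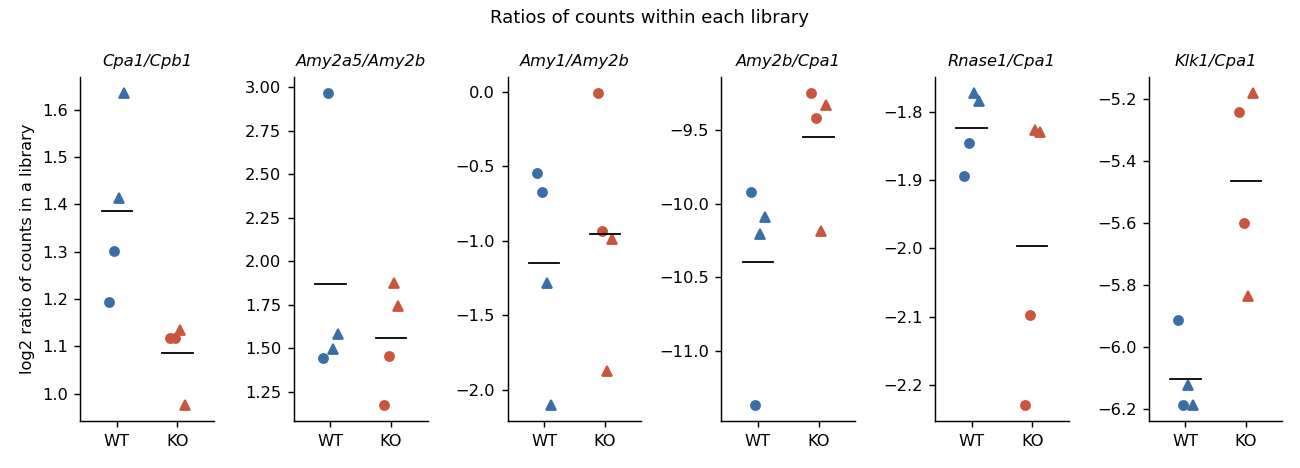
Log2 ratio of the counts of 2 genes in each library for the 6 ratios compared; circles are females, triangles males, blue Bach2WT, red Bach2KO, a line marks the mean of 4 libraries, and each panel has its own vertical scale. The genotypes are separate for Cpa1 to Cpb1 and for Klk1 to Cpa1, and overlap in the other 4 panels.

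Klk1 (ENSMUSG00000063903; GRCm39 chromosome 7, 43874784 to 43879042, plus strand) encodes tissue kallikrein. The Bach2KO mice had 1233, 1056, 945 and 1337 FPKM and the Bach2WT mice 995, 1022, 1187 and 1065. The Bach2KO libraries were more spread, with the highest and the lowest value of all 8, and enclosed the Bach2WT libraries. The log2 fold change was 0.12 (SE 0.16; 95% interval -0.21 to 0.46), with an adjusted p of 0.926 in edgeR. Its coding part was 95.2% identical to that of Klk1b5, a neighbour of the same family, whose counts amounted to 3.27% to 5.43% of those of Klk1.

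Among the amylases, Amy2a5 had 47.1, 55.9, 46.0 and 68.5 FPKM in Bach2KO mice and 45.8, 59.6, 53.4 and 57.9 in Bach2WT mice. The groups overlapped throughout, and the log2 fold change was 0.03 (SE 0.17; 95% interval -0.33 to 0.39) with an adjusted p of 0.986 in edgeR. Its sign turned without Bach2KO mouse 4, at -0.10, and without Bach2WT mouse 1, at -0.04. Amy2b had 52.6, 51.3, 31.6 and 51.5 FPKM in Bach2KO mice and 42.3, 19.2, 47.8 and 48.7 in Bach2WT mice. Bach2KO mouse 3 and Bach2WT mouse 2 were low, and the other 3 Bach2KO libraries were above all Bach2WT libraries. The log2 fold change of Amy2b was 0.27 (SE 0.27; 95% interval -0.30 to 0.84) with an adjusted p of 0.884 in edgeR. Leaving out Bach2WT mouse 2 gave 0.04, and leaving out Bach2KO mouse 3 gave 0.40. On the log2 CPM scale, Amy2b differed by 0.90 between the genotypes in females and by -0.24 in males. The test of this difference between the sexes gave -0.98 (SE 0.48) with an adjusted p of 0.834 in edgeR, and 0 of 7 genes passed it, beside 0.0% of all genes. At an unadjusted p under 0.05 there were likewise 0 of 7, beside 6.14% of all genes.

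Amy1 had 23.9, 12.3, 3.93 and 11.9 FPKM in Bach2KO mice and 13.3, 5.50, 8.97 and 5.18 in Bach2WT mice. It was the most variable of the 7 genes, with its highest value in Bach2KO mouse 1 and its lowest in Bach2KO mouse 3. The log2 fold change was 0.69 (SE 0.43; 95% interval -0.24 to 1.63) with an adjusted p of 0.786 in edgeR. It was 0.20 without Bach2KO mouse 1, 0.98 without Bach2KO mouse 3 and 1.03 without Bach2WT mouse 1, so that its size rested on single libraries. Of 8 salivary gland markers, 1 was among the genes tested, at a log2 fold change of -0.41. The amylase members were not alike across the libraries, with a Pearson r of the log2 CPM over 8 libraries of 0.03 between Amy2a5 and Amy2b and of 0.62 between Amy1 and Amy2b.

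Other members of these families were counted by list. These counts stand beside 3.56% of all genes tested lower and 3.9% higher at an unadjusted p under 0.05 in edgeR. Of all genes, 0.0078% passed the adjusted threshold. Of 10 tested carboxypeptidase genes besides Cpa1 and Cpb1, 1 was lower at an unadjusted p under 0.05, Cpn1 at -0.36, the catalytic subunit of plasma carboxypeptidase N. The list had a median of 0.16. Among the 4 other amylase genes, Amy2a2 was higher at an unadjusted p under 0.05 with a log2 fold change of 0.86, and the list had a median of 0.28. Since the transcripts of Amy2a2, Amy2a3 and Amy2a4 share every window of 150 bases, their single values are uncertain. In the ribonuclease A family, with the ribonuclease inhibitor, 1 of 6 tested genes passed the adjusted threshold, Rnase2a, an eosinophil-associated ribonuclease that had 29 to 134 counts in Bach2KO libraries and 0 in Bach2WT libraries. In edgeR, no gene, Rnase2a included, passed the adjusted threshold with sex as a covariate or with a replicate block. The same held with counts divided by 2 and in each fit that left out 1 library. With at least 10 counts in every library no gene passed either, but Rnase2a, at 0 counts in Bach2WT libraries, was not tested there. The inhibitor Rnh1, which binds pancreatic ribonuclease tightly, had a log2 fold change of -0.40 (SE 0.19) with an adjusted p of 0.668 in edgeR. Of 10 tested kallikrein genes, Klk1b26 was higher at an unadjusted p under 0.05, at 1.41 with 44 to 504 counts in Bach2KO and 50 to 73 in Bach2WT libraries. Of the kinin system, 4 of 9 genes were tested and 0 had an unadjusted p under 0.05.

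The 25 other secreted acinar proteins, which include the trypsinogens, elastases and lipases, had a median log2 fold change of -0.36 with TMM factors, with 22 below 0. At an unadjusted p under 0.05 in edgeR, 9 were lower and 1 was higher, beside 3.56% of all genes lower and 3.9% higher. None passed the adjusted threshold. Total counts as the only scaling moved the median of all genes from 0.05 to 0.35, and this list was not counted with that scaling. Those with the smallest p were the trypsinogen Try10 at -1.31, the elastases Cela3a at -1.18 and Cela3b at -0.64, and the chymotrypsin-like Ctrl at -0.66. Cpa1, Rnase1 and Cpb1 thus had estimates in the direction of most of this list, while Klk1 and the 3 amylases did not. Of the 10 acinar transcription factors, 0 had an unadjusted p under 0.05, with a median of -0.16, 4 above 0 and 6 below. The factor with the smallest p lay above 0. Among those below 0 were Bhlha15, which governs secretory maturation, at -0.36 and Rbpjl, a subunit of PTF1, at -0.30. The list as a whole thus showed no common direction.

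Markers of other cells moved as follows, and their part in the differences above was not tested. The counts of markers stand beside 3.9% of all genes tested higher and 3.56% lower at an unadjusted p under 0.05 in edgeR. T cell markers were low throughout, with a summed CPM of 0.809 to 3.10 in Bach2KO and 0.187 to 2.18 in Bach2WT libraries, and 0 of 6 tested had an unadjusted p under 0.05. Macrophage markers summed to 24.8 to 38.5 CPM in Bach2KO and 17.4 to 32.9 in Bach2WT libraries, with 2 of 10 higher at an unadjusted p under 0.05. Of these 10, 7 had a log2 fold change above 0 and 3 below. Endothelial markers summed to 18.1 to 36.2 and 13.9 to 21.4 CPM, with 2 of 8 higher, and the duct cell markers to 190 to 263 and 230 to 267 CPM, with 2 of 9 higher. Islet markers summed to 229 to 2025 CPM in Bach2KO and 187 to 2321 in Bach2WT libraries, with 1 of 10 higher. Stellate cell and fibroblast markers summed to 47.4 to 82.8 and 35.8 to 85.8 CPM and B and plasma cell markers to 4.97 to 16.3 and 3.66 to 9.93, each with 0 at an unadjusted p under 0.05, of 10 and 4 tested. Adipocyte markers summed to 10.3 to 24.5 and 10.0 to 30.3 CPM, with 1 of 6 lower, and none of the eosinophil markers had enough counts to be tested. All marker genes together stood far below the secreted acinar proteins, whose summed CPM was 623670 to 693940 in Bach2KO and 658054 to 889881 in Bach2WT libraries. All these sums use library sizes multiplied by TMM factors, so they are not shares of the counts. The factors were 1.05 to 1.18 in Bach2KO and 0.826 to 1.10 in Bach2WT libraries, and differences in summed CPM between the genotypes include them.

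The genes most like each member over the 8 libraries, by Pearson r of the log2 CPM, are given as a description, since the libraries share their genotype difference and their scaling. For Cpa1 they were Ndufv1, a subunit of respiratory complex I, with 0.966, the trypsinogen Prss2 with 0.964 and Ecsit with 0.960. Cpa1 and Rnase1 themselves had an r of 0.957. Among the genes most like Rnase1 were Pcbd1 with 0.985 and Bckdk with 0.981. For Cpb1 they were the tyrosyl-tRNA synthetase Yars with 0.944, the cystathionine beta-synthase Cbs with 0.941 and the mitochondrial ribosomal protein Mrps14 with 0.936. Klk1 was most like Gp2, a membrane protein of zymogen granules, with 0.944, then Otud3 with 0.927 and Rasa3 with 0.917. For Amy1 they were the peroxisomal protein Pex11a with 0.994, Oga with 0.972 and Ube2b with 0.970. Amy2a5 had Rab11fip4 with 0.920, Dhx38 with 0.911 and Tubgcp2 with 0.906, and Amy2b had Insl6 with 0.978, Arl14ep with 0.974 and Casp12 with 0.964. Cpa1 and Cpb1 had an r of 0.791, lower than that of Cpa1 with Rnase1, and Klk1 had -0.323 with Cpa1.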

How the data were processed

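The data were poly(A) RNA-seq libraries of pancreatic tissue of 8 mice. Per the labels' processing notes, the authors used fastp, HISAT2 2.2.1, featureCounts 2.0.6 and mm39. The annotation, counting options and roles of the tools are not given in the sources used here. The authors deposited raw counts per gene, a signal equal to the count divided by 1 size factor per library, and FPKM made from that signal and the gene length. The columns of the authors' own comparison (log2 fold change, p-value, adjusted p-value) were deposited too and not used. In 52.8% to 56.1% of the genes above 20 counts the count was even, so both mates of some pairs may have been counted.

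Counts were tested with edgeR 4.0.16 (TMM factors, filterByExpr, quasi-likelihood fit, genotype as the only term, 8 libraries), which tested 12820 of 21434 genes, with Benjamini-Hochberg adjustment at 0.05 over all of them. A standard error is the log2 fold change divided by the square root of F, and log2 CPM used a prior count of 2. On simulated counts of 12285 genes for this comparison, 71.4% of 185 genes changed by 2 on the log2 scale were recovered and 5.71% of calls were false. Ratios within a library were compared with scipy 1.17.1. The total counts of 72299745 to 172029360 make counting error small against the spread between mice. DESeq2 1.42.0, other factors, filters, covariates and left-out libraries were alternatives. Groups are those of the labels. Sequences came from GENCODE vM21 and RefSeq promoters, compared with Biopython 1.88.

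Named genes were the 7 members, up to 4 genes of each list with the smallest p, and the 3 genes most like each member over the 8 libraries. The members and lists were chosen with earlier results of these data known. Values of 2 genes that this rule named are not reported here.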

Additional observations from a re-analysis of the deposited data

Results flagged for a closer look

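In 26 groups of 4 libraries, 3 values stood apart from the other 3 of their group by Dixon's criterion, where chance gives about 1 in 20. Amy2b was lowest in Bach2KO mouse 3 at 50.7 CPM, while the other Bach2KO libraries lay between 83.2 and 87.4. The log2 ratio of Cpa1 to Cpb1 was lowest in Bach2KO mouse 4 at 0.98, against 1.12 to 1.13 in the other Bach2KO libraries, and without that mouse the exact permutation p was 0.0571, the smallest that 4 against 3 libraries allow. The log2 ratio of Amy2a5 to Amy2b was highest in Bach2WT mouse 2 at 2.97, against 1.44 to 1.58 in the other Bach2WT libraries.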

How the results depend on the processing

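In 18 alternatives, Cpa1 (log2 fold change -0.62 to -0.22) and Rnase1 (-0.81 to -0.38) were below 0 with an unadjusted p under 0.05 in edgeR or DESeq2, and their adjusted p was 0.0482 to 0.882 and 0.0306 to 0.748. The number of the 7 genes past the adjusted threshold was 2 in DESeq2 and 0 in the other 17, and the number at an unadjusted p under 0.05 was 4 with total counts and 2 to 3 in the others. The count over all genes, 1 in the main test, was 75 in DESeq2 and 73 without a filter on low counts. It was 0 with at least 10 counts in every library, with sex as a covariate, with a replicate block, with counts divided by 2, and in all fits that left out 1 library (0 to 0), where 690 to 1380 genes had an unadjusted p under 0.05. Rnase2a, the 1 gene called in the main test, is left out by the filter of at least 10 counts in every library. The causes were not tested. Signs turned for Cpb1 with total counts (0.072), for Amy2a5 with a length correction (-0.12) or without Bach2KO replicate 4 (-0.10) or Bach2WT replicate 1 (-0.04; range over left-out libraries -0.10 to 0.087), for the ratio Amy2a5/Amy2b without Bach2WT replicate 2 (0.054) and for Amy1/Amy2b without Bach2KO replicate 1 (-0.12) or Bach2WT replicate 4 (-0.12). Leaving out 1 library, the ratio differences ran from -0.36 to -0.22 for Cpa1/Cpb1, 0.54 to 0.76 for Klk1/Cpa1, 0.53 to 1.07 for Amy2b/Cpa1, -0.23 to -0.09 for Rnase1/Cpa1, -0.45 to 0.054 for Amy2a5/Amy2b and -0.12 to 0.51 for Amy1/Amy2b, and no p under 0.0571 was possible. The replicate numbers gave correlations of 0.21, -0.03, -0.04 and -0.05 between same-numbered mice. Such mice share their sex, and the labels name no other link between them. Whether they share more was not tested. With the replicate block 0 genes and 0 of the 7 passed the threshold, and 2 of the 7 had an unadjusted p under 0.05. Counts of Amy1, the member with the fewest, were 1043 to 14072 in a library, and with counts divided by 2 its log2 fold change was 0.70.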
